A study of Homo sapiens with 10 samples.

Results

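The endothelin system described here consists of 5 genes: *EDN1*, the gene of the ligand endothelin-1, the receptor genes *EDNRA* and *EDNRB*, and the converting enzyme genes *ECE1* and *ECE2*. They were taken by symbol from the 36687 gene rows of the study, and the set was selected on the count of *EDN1*, which was strongly lower after 6 h of dasatinib. The *EDN1* values at 6 and 0 h are therefore a description and carry no test, and the same holds for the other members at 6 h and for *EDN1* at every later time against 0 h, since those comparisons use the same 0 h libraries. Of the 5 members, 4 passed the filter on low counts, and *ECE2* had no count in any library.

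RNA was sequenced from MDA-MB-231, a human triple-negative, basal B line of breast carcinoma, in 10 libraries with 2 biological replicates per time. The cells received dasatinib, an inhibitor of SRC family and ABL kinases, for 6, 12, 24 or 48 h, at the 100 nM given by the study's figure legend and not by the sample labels, and the 0 h libraries are titled sham although their treatment field names the drug. Sham cells collected at the later times are not among the samples, so drug and time in culture cannot be told apart in any difference from 0 h, and all values come from 1 cell line. Each library held between 40942913 and 49133774 gene counts. Replicate 1 at 12 h stood apart, with a highest correlation of log2 CPM (counts scaled by TMM to library size) to any other library of 0.955, against 0.983 to 0.987 for the remaining 9, so each member's call that uses 12 h is also given without it.

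Endothelin-1 is made as a precursor that furin-like proprotein convertases cut to big endothelin-1, and the membrane metallopeptidases ECE-1 and ECE-2 then cut this to the active peptide. The peptide acts through 2 G protein-coupled receptors: the A receptor raises calcium through phospholipase C and drives contraction in vascular smooth muscle, while the B receptor can also clear the peptide from the circulation. Endothelial cells are the usual source of endothelin-1, many carcinoma cells secrete it as well, and its amount is set mainly by transcription of *EDN1*.

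*EDN1* lies on the plus strand of chromosome 6 at chr6:12290361-12297194 (GRCh38, GENCODE annotation), with no overlapping gene there. The 250 bases just before its start, chr6:12290111-12290360 on the plus strand, are shown because this stretch holds sites known from work on the human gene for AP-1, GATA and hypoxia-inducible factors. The sequence is that of RefSeq on GRCh38.p14, and capitals mark the letters found by the motif search on either strand.

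*EDN1* promoter: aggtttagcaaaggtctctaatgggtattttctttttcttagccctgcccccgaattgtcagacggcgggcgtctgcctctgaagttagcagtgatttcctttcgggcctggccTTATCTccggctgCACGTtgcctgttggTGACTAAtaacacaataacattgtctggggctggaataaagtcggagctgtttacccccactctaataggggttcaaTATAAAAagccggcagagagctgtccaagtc

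From the 5′ end, the capitals mark a GATA motif (AGATAA, read on the minus strand) at position -136 from the start, a hypoxia response core (ACGTG, minus strand) at -123, an AP-1 site variant (TGACTAA, plus strand) at -108 and a TATA box (TATAAAA, plus strand) at -31, none of which overlap. Over 35116 promoter windows of the same length, 9.17% held the GATA letters, 18.5% the hypoxia core, 1.62% the AP-1 variant and 4.18% the TATA letters. The canonical AP-1 letters TGANTCA, present in 6.57% of windows, and the TEAD letters GGAATG, present in 11.9%, were not found in this window. Upstream of another listed start of *EDN1*, the window chr6:12289764-12290013 held the TEAD letters on the minus strand at -129. The remaining *EDN1* window, chr6:12287769-12288018, held the hypoxia core on the minus strand at -240 and -93 and no TEAD letters. A window of *EDNRB* also held the TEAD letters, on the minus strand at -77. The same *EDNRB* window held the hypoxia core on the plus strand at -136 and -114. The other *EDNRB* window held the hypoxia core on the minus strand at -196. The shares above are per window, and 3 windows of *EDN1* were searched. The motifs were picked with this sequence in view, and a match is a run of letters and not a measured binding site.

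The ligand mRNA was high at 0 h and low at every treated time. *EDN1* had 2499 and 2650 counts at 0 h, 469 and 426 after 6 h, 193 and 453 after 12 h, 790 and 779 after 24 h, and 1003 and 875 after 48 h. As CPM these were 59.7 and 60.8 at 0 h, 10.9 and 9.54 after 6 h, 4.59 and 9.93 after 12 h, 15.7 and 17.7 after 24 h, and 20.5 and 19.8 after 48 h. All 8 treated libraries lay below both 0 h libraries, and the lowest single value was in 12 h replicate 1. In a bulk sample, fewer cells that make a transcript and less of it per cell cannot be told apart.

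The log2 fold change (log2FC) of *EDN1* from 0 h, estimated by edgeR from the raw counts, was −2.56 at 6 h (standard error, SE, 0.282), −3.05 at 12 h (SE 0.289), −1.85 at 24 h (SE 0.273) and −1.58 at 48 h (SE 0.271). The fitted level was thus 17.0% of that at 0 h after 6 h, 12.1% after 12 h, 27.7% after 24 h and 33.5% after 48 h. Without 12 h replicate 1 the value at 12 h was −2.59, and without 12 h replicate 2 it was −3.72. Of the 15727 genes tested, 102 had a lower log2FC than *EDN1* at 6 h, and the number was 125 after 12 h, 163 after 24 h and 410 after 48 h. At 6 h against 0 h 2.73% of all genes passed an adjusted p of 0.05 in either direction, a share given here only as background.

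The comparisons among 12, 24 and 48 h use neither the 0 h nor the 6 h libraries, and they ask whether the ligand mRNA stayed at its low level. *EDN1* rose again after 12 h. At 24 h it was higher than at 12 h by a log2FC of 1.20 (SE 0.276, edgeR adjusted p = 0.0279), in a comparison in which 7.58% of genes were called. At 48 h it was higher than at 12 h by 1.47 (SE 0.277, edgeR adjusted p = 0.00401), where 22.7% of genes were called. The 24 and 48 h libraries lay above both 12 h libraries. The size of these differences rests in part on 12 h replicate 1: without it they were 0.74 (adjusted p = 0.000558) and 1.01 (adjusted p = 3.01e-06), and without 12 h replicate 2 they were 1.87 and 2.14. The 24 h difference missed the threshold when any of the 8 libraries other than those at 12 h was left out, with adjusted p-values up to 0.210 without 24 h replicate 2, or when the 24 and 12 h libraries were fitted alone (edgeR adjusted p = 0.357). At 48 against 24 h, where 3.18% of genes were called, the difference in *EDN1* was 0.27 (edgeR adjusted p = 0.697), with a 95% interval of −0.32 to 0.87.

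**Figure D1:**
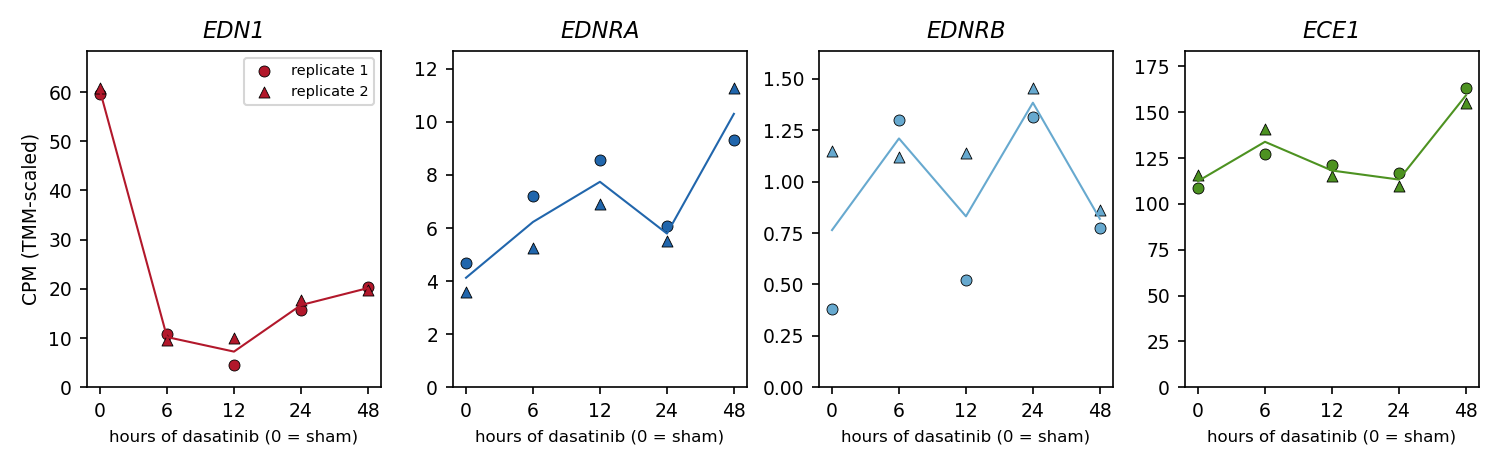
CPM (TMM-scaled, vertical axes from 0) of the 4 detected endothelin genes against hours of dasatinib, with 0 h as sham; circles and triangles are the libraries of replicates 1 and 2 and lines join the means. *EDN1* sits at 59.7 and 60.8 CPM at 0 h and at 20.5 CPM or less in all treated libraries, while *EDNRA* and *ECE1* have their highest values at 48 h.

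The A receptor mRNA was higher in treated cells, with calls at 12 and 48 h. *EDNRA*, the receptor with high affinity for endothelin-1, is on the plus strand at chr4:147480917-147544954 (GRCh38). It had 196 and 156 counts at 0 h, 310 and 235 after 6 h, 360 and 316 after 12 h, 306 and 242 after 24 h, and 457 and 497 after 48 h. The CPM values were 4.68 and 3.58 at 0 h, 7.20 and 5.26 after 6 h, 8.56 and 6.92 after 12 h, 6.09 and 5.50 after 24 h, and 9.33 and 11.3 after 48 h. All 8 treated libraries were above both 0 h libraries, and both 48 h libraries were above all others.

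At 48 h *EDNRA* rose 2.49-fold over 0 h, a log2FC of 1.32 (SE 0.237, edgeR adjusted p = 0.002), in a comparison in which 16.0% of genes were higher and 16.3% lower. This call held with each library left out, where the log2FC was between 1.13 and 1.52 and the adjusted p at most 0.0293. At 12 h it rose by 0.91 (SE 0.237, edgeR adjusted p = 0.0479), where 3.93% of genes were higher and 3.22% lower. The 12 h call lay near the threshold. Without 12 h replicate 1 the difference was 0.75 (adjusted p = 0.034), but it was lost when any of 8 other single libraries was left out, with values between 0.71 and 1.10 over all 10 such fits. At 24 h the difference was 0.49 (95% interval −0.04 to 1.02, edgeR adjusted p = 0.185), where 9.73% of genes were higher and 10.2% lower.

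Between treated times *EDNRA* did not pass the test. The log2 difference was −0.42 at 24 against 12 h (95% interval −0.94 to 0.10), 0.41 at 48 against 12 h (95% interval −0.10 to 0.93) and 0.83 at 48 against 24 h (95% interval 0.31 to 1.35, unadjusted for the number of genes, edgeR adjusted p = 0.0983). The last of these passed in 7 of 20 alternatives: with DESeq2 on all libraries (adjusted p = 0.0251), without a filter on low counts (adjusted p = 0.022), in the 2-group fits by edgeR (adjusted p = 0.000392) and DESeq2 (adjusted p = 0.00147), without both 12 h libraries (adjusted p = 0.00385), and without either 12 h library (adjusted p = 0.00295 without replicate 1). At 6 h, as a description, *EDNRA* was at a log2FC of 0.59 (SE 0.237).

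The B receptor was near the lower limit of what these libraries measure. *EDNRB*, which binds all endothelins with similar affinity, is on the minus strand at chr13:77895481-77975529 (GRCh38). It had 16 and 50 counts at 0 h, 56 and 50 after 6 h, 22 and 52 after 12 h, 66 and 64 after 24 h, and 38 and 38 after 48 h. The replicates at 0 h thus differed by more than the means of any 2 times, and replicate 1 was the low library at both 0 and 12 h.

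No difference in *EDNRB* was detectable at this depth, and its 6 h value, given as a description, was 0.66 (SE 0.585). Against 0 h its log2FC was 0.12 at 12 h (95% interval −1.19 to 1.43), 0.85 at 24 h (95% interval −0.45 to 2.15) and 0.10 at 48 h (95% interval −1.22 to 1.41), with adjusted p-values of 0.918, 0.359 and 0.923 from edgeR. Between treated times it was 0.73 at 24 against 12 h (95% interval −0.56 to 2.02), −0.03 at 48 against 12 h (95% interval −1.33 to 1.28) and −0.75 at 48 against 24 h (95% interval −2.05 to 0.54), none past the threshold. The intervals against 0 h leave room for more than a 2-fold change either way at 12 and 48 h. The antisense gene *OBI1-AS1* shares 80 exonic bases with *EDNRB*, 1.4% of its exons, and had 0 to 15 counts. An unnamed long non-coding RNA on the same strand shares 124 exonic bases, 2.2% of the *EDNRB* exons, and no count of it was used here. Strand was not stated for the counting, so reads in the bases shared with *OBI1-AS1* could not be assigned to 1 gene. Reads in the bases shared with the unnamed RNA could not be assigned by strand in any case.

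*ECE1* was the most abundant converting enzyme mRNA and was highest at 48 h. The gene, which encodes the main peptidase that releases endothelin-1 from its precursor, is on the minus strand at chr1:21217247-21345572 (GRCh38). It had 109 and 116 CPM at 0 h, 127 and 141 after 6 h, 121 and 115 after 12 h, 117 and 110 after 24 h, and 163 and 155 after 48 h, from at least 4563 counts in each library. Both 48 h libraries were above all others, and the 12 and 24 h values overlapped those at 0 h. Both 6 h libraries were above both 0 h libraries, which is a description.

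At 48 h *ECE1* rose 1.42-fold over 0 h, a log2FC of 0.50 (SE 0.106, edgeR adjusted p = 0.00497). Without 0 h replicate 1 it was 0.46 (adjusted p = 0.0615), and without 48 h replicate 1 it was also 0.46 (adjusted p = 0.0526). *ECE1* was also higher at 48 than at 12 h by 0.43 (SE 0.105, edgeR adjusted p = 0.0158) and at 48 than at 24 h by 0.49 (SE 0.105, edgeR adjusted p = 0.0351). Without 12 h replicate 1 the difference from 12 h was 0.46 (adjusted p = 0.000347). The call against 12 h was lost without either 48 h library (adjusted p = 0.118 without replicate 1), and the call against 24 h was lost when any of the 8 libraries other than those at 12 h was left out, up to an adjusted p of 0.349 without 24 h replicate 2. At 12 and 24 h against 0 h the differences were 0.07 (95% interval −0.16 to 0.31) and 0.01 (95% interval −0.22 to 0.25), and at 24 against 12 h −0.06 (95% interval −0.30 to 0.17), none past the threshold. As a description, the value at 6 h was 0.25 (SE 0.105). The antisense gene *ECE1-AS1*, with 0 to 12 counts, shares 240 exonic bases or 3.3% of the *ECE1* exons.

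*ECE2*, which encodes an intracellular converting enzyme active at acidic pH and known mainly from neural tissue, had 0 counts in all 10 libraries. A count of 0 allows up to 3 counts, or between 0.0597 and 0.0716 CPM depending on the library. Its locus, chr3:184276011-184293031 on the plus strand (GRCh38), overlaps the readthrough gene *EEF1AKMT4-ECE2*, which shares 2965 bases or 62.7% of the *ECE2* exons and also had 0 counts in all libraries. Reads that fall in 2 genes are often left uncounted, and whether this set the 0 for *ECE2* was not tested. The upstream gene of the readthrough, *EEF1AKMT4*, a methyltransferase of a translation elongation factor, had 60 to 146 counts.

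**Figure D2:**
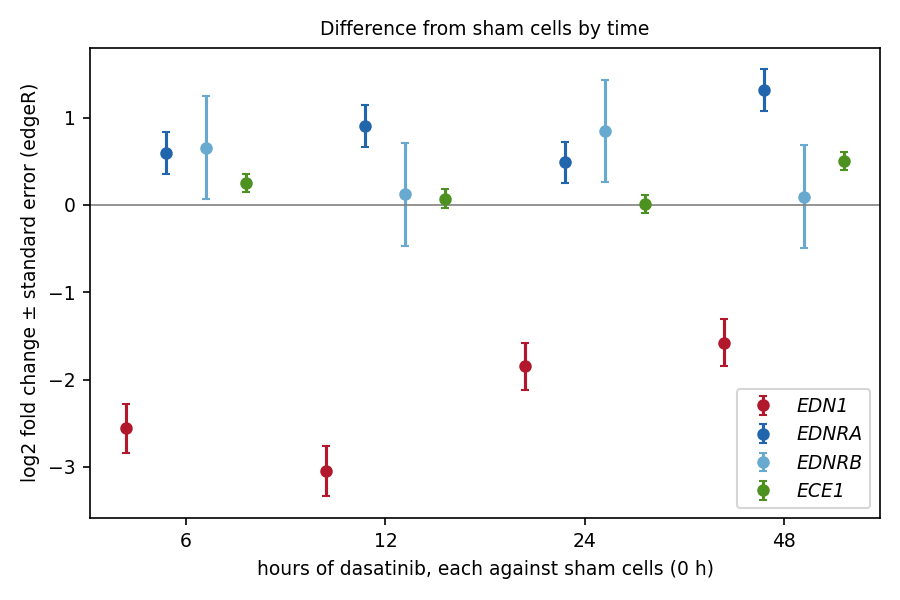
Log2 fold change of each detected member at 6, 12, 24 and 48 h of dasatinib against sham cells at 0 h, with the standard error from edgeR as bars. *EDN1* lies between −3.05 and −1.58, *EDNRA* is highest at 48 h with 1.32, the bars of *EDNRB* are the longest, and *ECE1* departs most from 0 at 48 h with 0.50.

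Of the 3 other members tested against 0 h, 1 passed at 12 h and 2 at 48 h, all of them higher. A set of 3 genes is too small to read these counts against the shares of genes called higher, 3.93% at 12 h and 16.0% at 48 h.

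Per transcript length, the order of the members changed between sham and treated cells. In TPM (scaled by transcript length and library total, as the authors deposited them), *EDN1* was at 99.4 and 103 at 0 h, 18.6 and 15.5 after 6 h, 8.60 and 17.3 after 12 h, 27.4 and 32.4 after 24 h, and 35.5 and 35.8 after 48 h. *ECE1* was at 50.6 and 54.7 TPM at 0 h, 60.5 and 63.8 after 6 h, 63.2 and 55.9 after 12 h, 56.8 and 55.9 after 24 h, and 78.6 and 77.9 after 48 h. In both 0 h libraries the ligand stood above its converting enzyme, and in all 8 treated libraries it stood below it.

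The ratio of *EDN1* to *ECE1* in TPM was 1.97 and 1.88 at 0 h, 0.308 and 0.243 after 6 h, 0.136 and 0.309 after 12 h, 0.482 and 0.580 after 24 h, and 0.451 and 0.459 after 48 h. The ratio of *EDN1* to *EDNRA* was 26.6 and 35.4 at 0 h and between 1.12 and 6.70 in the treated libraries, with the lowest value in 12 h replicate 1. *EDNRA* was at 2.91 to 9.76 TPM and *EDNRB* at 0.231 to 0.967 TPM over the 10 libraries, so the A receptor mRNA exceeded that of the B receptor in each of them, by 4.13 to 21.7 times. The order below *EDN1* and *ECE1* was the same in all libraries, *EDNRA* before *EDNRB* before *ECE2*, and no neighbours in it overlapped within a time. Since *EDN1* was chosen for its fall, its change of place is a description.

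**Figure D3:**
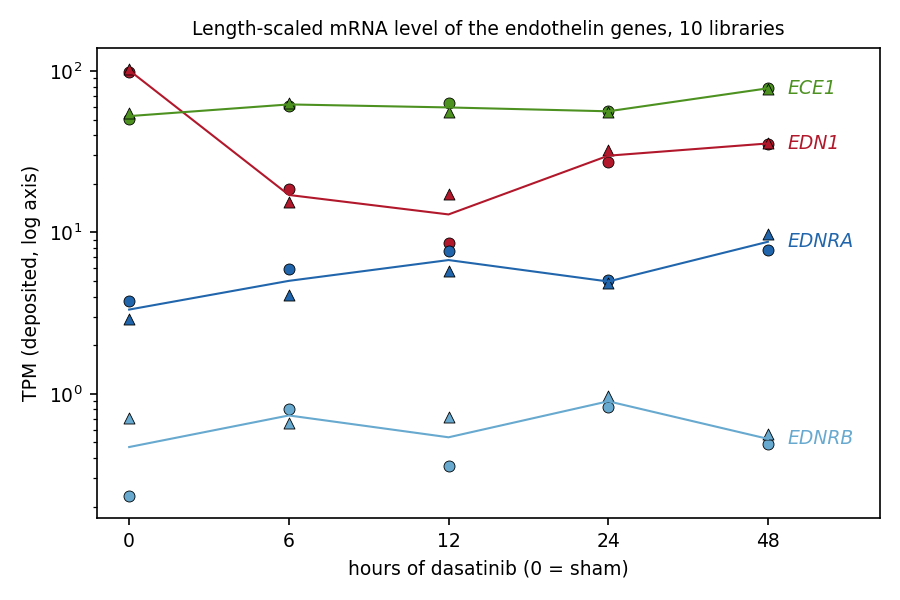
Deposited TPM (log axis) of the 4 detected members against hours of dasatinib, 2 libraries per time with a line through the means; *ECE2*, at 0, is not drawn. *EDN1* is the highest of the 4 at 0 h, near 101 TPM on average, and lies below *ECE1* at each treated time.

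Across the 10 libraries, the genes whose log2 CPM followed *EDN1* most closely, of 10981 ranked, included *CCN1* (Pearson r = 0.991), *DKK1* (r = 0.983), *AJUBA* (r = 0.982) and *ANKRD1* (r = 0.968). They encode a secreted matricellular protein, a secreted Wnt antagonist, a LIM domain protein of cell junctions and an ankyrin repeat protein known from muscle. The points share the time course and their libraries, and without 12 h replicate 1 the correlations were 0.989, 0.986, 0.974 and 0.983 in the same order, with *CCN1* then ranked 2 and *AJUBA* 13. Because *EDN1* was chosen for this profile, the likeness is given with no test.

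*CCN1* was at 1552 and 1667 CPM at 0 h, 479 and 456 after 6 h, 251 and 481 after 12 h, 737 and 826 after 24 h, and 783 and 782 after 48 h. Like *EDN1* it had its lowest value in 12 h replicate 1. *ANKRD1* was at 462 and 496 CPM at 0 h, 83.4 and 95.5 after 12 h, and 222 and 224 after 48 h. *AJUBA* was between 81.7 and 195 CPM, the narrowest range of the 4 on a log scale.

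**Figure D4:**
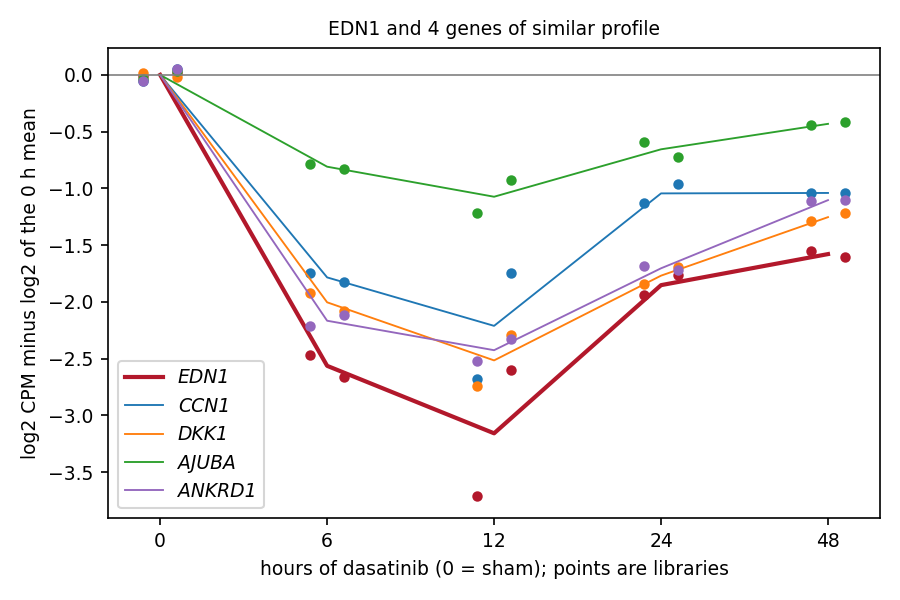
Log2 CPM minus the log2 of the gene's 0 h mean for *EDN1* and 4 genes of similar profile, by hours of dasatinib; points are libraries and lines join the means. All 5 genes have their lowest mean at 12 h and partly return by 48 h, and the line of *EDN1* is the lowest at each treated time.

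For *EDNRA* the 3 most similar profiles were those of *CDS1*, a CDP-diacylglycerol synthase (r = 0.959), *SESN1*, a stress-responsive sestrin (r = 0.958), and the long non-coding RNA *OIP5-AS1* (r = 0.954). For *ECE1* they were *TMEM127* (r = 0.942), *TBC1D20*, a Rab GTPase-activating protein (r = 0.937), and *SENP2*, a SUMO protease (r = 0.927). For *EDNRB* they were *TRAFD1* (r = 0.943), *THAP8* (r = 0.925) and the kinase gene *PIM2* (r = 0.891). By Spearman's rank correlation these 3 stood only at places 95, 49 and 159, so the likeness to a gene with so few counts changed with the measure.

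The other ligands and the relatives of the converting enzymes were mostly undetected. *EDN2*, the gene of endothelin-2, had 0 to 26 counts, with a log2FC of 0.04 at 48 h (edgeR adjusted p = 0.985), and *EDN3*, of endothelin-3, had 0 counts in every library. Of the 5 listed M13 peptidases, *MME*, which degrades endothelins, *MMEL1* and *ECEL1* had 0 counts throughout, and *KEL*, which can cleave big endothelin-3, had 0 to 4. Only *PHEX*, a peptidase of bone and phosphate metabolism, changed: it was at 2.23 and 2.97 CPM at 48 h, against 0.835 and 1.15 CPM at 0 h, a log2FC of 1.39 (edgeR adjusted p = 0.0123) that missed the threshold without 0 h replicate 1 or 48 h replicate 2.

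The proprotein convertases act a step before ECE-1. Of 7 listed, 5 were tested, and 3 rose at 48 h, where 16.0% of all genes were called higher, with a list median of 0.43 against 0.01 for all genes. With single libraries left out 1 to 4 were called higher at 48 h. None fell at 48 h by edgeR, and 0 were lower at an unadjusted p under 0.05 or by DESeq2. *PCSK4* was at 4.45 and 4.33 CPM at 48 h, against 1.55 and 1.74 CPM at 0 h, a log2FC of 1.41 (edgeR adjusted p = 0.00518) that just missed the threshold without 0 h replicate 1 (adjusted p = 0.0511). *PCSK5* rose by 1.06 (adjusted p = 0.0134), which missed the threshold without 0 h replicate 2 or either 48 h library. *PCSK6* rose by 0.43 (adjusted p = 0.0453), which was lost when any of the 8 libraries other than those at 12 h was left out. *FURIN*, the convertase best known for cutting the endothelin-1 precursor, did not pass, with a log2 difference of 0.28 (95% interval 0.00 to 0.56).

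Genes that couple or silence the receptors went both ways. Of 31 listed, 30 were tested: 3 rose at 12 h, 6 rose and 4 fell at 24 h, and 7 rose and 6 fell at 48 h, with a median of 0.06 at 48 h against 0.01 for all genes. The list median at 6 h, as a description, was 0.03 against 0.01 for all genes. Of all genes, 3.93% were higher at 12 h, 9.73% higher and 10.2% lower at 24 h, and 16.0% higher and 16.3% lower at 48 h. At 12 h 0 fell by edgeR or DESeq2 on all libraries, and 1 was lower at an unadjusted p under 0.05. With single libraries left out, 0 to 12 were called higher and 0 to 6 lower at 12 h, and without 12 h replicate 1 7 rose and 2 fell after 12 h, 7 rose and 7 fell after 24 h, and 10 rose and 9 fell after 48 h. *ARRB1*, the gene of beta-arrestin 1, which binds phosphorylated receptors, was at 110 and 94.3 CPM at 48 h, against 37.8 and 39.5 CPM at 0 h, a rise of 1.40 (SE 0.119, edgeR adjusted p = 2.53e-05). Protein kinase C alpha (*PRKCA*) rose at 48 h by 0.90 (edgeR adjusted p = 0.00016) and phospholipase C beta 2 (*PLCB2*) by 0.98 (edgeR adjusted p = 0.000487). Both are enzymes of the pathway that raises or follows calcium. *PRKCA* was lower before it rose, with means of 199 CPM at 0 h, 136 after 6 h, 174 after 12 h, 252 after 24 h and 372 after 48 h.

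The receptor kinase gene *GRK6* fell to 82.2 and 68.5 CPM at 48 h, against 142 and 139 CPM at 0 h, a log2FC of −0.90 (edgeR adjusted p = 0.000432). *GNAI3*, an inhibitory G protein subunit, had −0.58 (adjusted p = 0.00378), and *ARHGEF1*, a guanine nucleotide exchange factor activated by G12 and G13 proteins, −0.38 (adjusted p = 0.0166). The *ARHGEF1* call was lost without either 0 h or either 48 h library.

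Of 20 genes listed as regulators of *EDN1* transcription, 19 were tested. At 12 h 2 rose and 3 fell, at 24 h 3 rose and 1 fell, and at 48 h 4 rose and 4 fell, with a median of 0.08 at 48 h against 0.01 for all genes. The list median at 6 h, as a description, was −0.14 against 0.01 for all genes. Of all genes, 3.93% rose and 3.22% fell after 12 h, 9.73% rose and 10.2% fell after 24 h, and 16.0% rose and 16.3% fell after 48 h. With single libraries left out, 0 to 6 were called higher and 0 to 8 lower at 12 h, and without 12 h replicate 1 2 rose and 6 fell after 12 h, 6 rose and 5 fell after 24 h, and 8 rose and 4 fell after 48 h. *TGFBR1* and *TGFBR2*, receptors of TGF-beta, which is known to raise *EDN1* transcription, rose by 1.29 (adjusted p = 0.000999) and 0.83 (edgeR adjusted p = 0.00027), and the ligand gene *TGFB1* by 0.55 (adjusted p = 0.0116, lost without 0 h replicate 2 or 48 h replicate 1). *NFKB1* had −0.56 (adjusted p = 0.00191), *FOS* −0.85 (adjusted p = 0.00658) and *KLF2* −0.83 (adjusted p = 0.0217) at 48 h, and the call of *FOS* was lost without 0 h replicate 1 or 48 h replicate 2 and that of *KLF2* without 0 h replicate 1 or either 48 h library.

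*FOS*, a subunit of AP-1, was at 19.6 and 16.7 CPM at 0 h, 5.90 and 5.95 after 6 h, 6.85 and 7.98 after 12 h, 15.5 and 20.7 after 24 h, and 10.9 and 9.12 after 48 h. Its lowest values were at 6 and 12 h, and its 24 h libraries overlapped those at 0 h. At 12 h it fell by 1.29 on the log2 scale (edgeR adjusted p = 0.00474). Its partner *JUN*, named here after its values were seen, was at 223 and 210 CPM at 0 h, 127 and 138 after 6 h, 84.9 and 124 after 12 h, 146 and 164 after 24 h, and 208 and 189 after 48 h. Its log2FC against 0 h was −1.06 after 12 h (adjusted p = 0.00579), and by 48 h it was −0.13 (adjusted p = 0.595). *GATA2*, the endothelial activator of *EDN1* and likewise named after its values were seen, was at 25.3 and 29.8 CPM at 0 h, 33.9 and 35.2 after 6 h, 17.6 and 30.0 after 12 h, 22.9 and 22.5 after 24 h, and 17.4 and 17.3 after 48 h. Its log2FC was −0.67 at 48 h (adjusted p = 0.0377). *HIF1A*, also named after its values were seen, averaged 396 CPM at 0 h and 358 after 6 h. After 12 h it averaged 571 CPM (standard deviation 224), after 24 h 500 and after 48 h 418. No binding to the promoter printed above was measured, and the part of these factors in the *EDN1* values was not tested.

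Of 27 genes of other vasoactive peptide systems, 13 were tested, and 1 rose at 12 h, 2 at 24 h and 3 at 48 h. The 3 at 48 h include *BDKRB1*, whose rise is a description and no test, as set out below. The list median was 1.00 at 48 h against 0.01 for all genes, with *BDKRB1* among the 13. Of all genes, 3.93% rose by 12 h, 9.73% by 24 h and 16.0% by 48 h. None fell by edgeR or, on all libraries, by DESeq2, but with single libraries left out up to 3 were called lower at 12 h and up to 1 at 24 h and at 48 h, and 4 of the 10 other alternatives also called 1 lower at 48 h. At an unadjusted p under 0.05 the lower genes numbered 1 at 12 h, 0 at 24 h and 0 at 48 h. *BDKRB2*, the bradykinin B2 receptor, had 18 and 11 counts at 0 h, 18 and 31 after 6 h, 63 and 41 after 12 h, 146 and 121 after 24 h, and 245 and 236 after 48 h, a log2FC of 3.92 at 48 h (SE 0.432, edgeR adjusted p = 0.000109). *ADM2*, of the peptide intermedin, rose by 1.00 (adjusted p = 0.000623). *BDKRB1*, the inducible B1 receptor, had 40 and 35 counts at 48 h against 0 and 2 at 0 h. It had 2 to 9 counts after 6 h, 0 to 17 after 12 h and 5 to 11 after 24 h. It passed the filter on low counts only through its 48 h libraries, so its rise is a description. Its call, counted above, was lost when any of 8 libraries was left out. The list holds other genes with few counts at 0 h, such as *NPPA* at 3 to 11 and *NPR1* at 10. Their part in the list median was not tested.

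**Figure D5:**
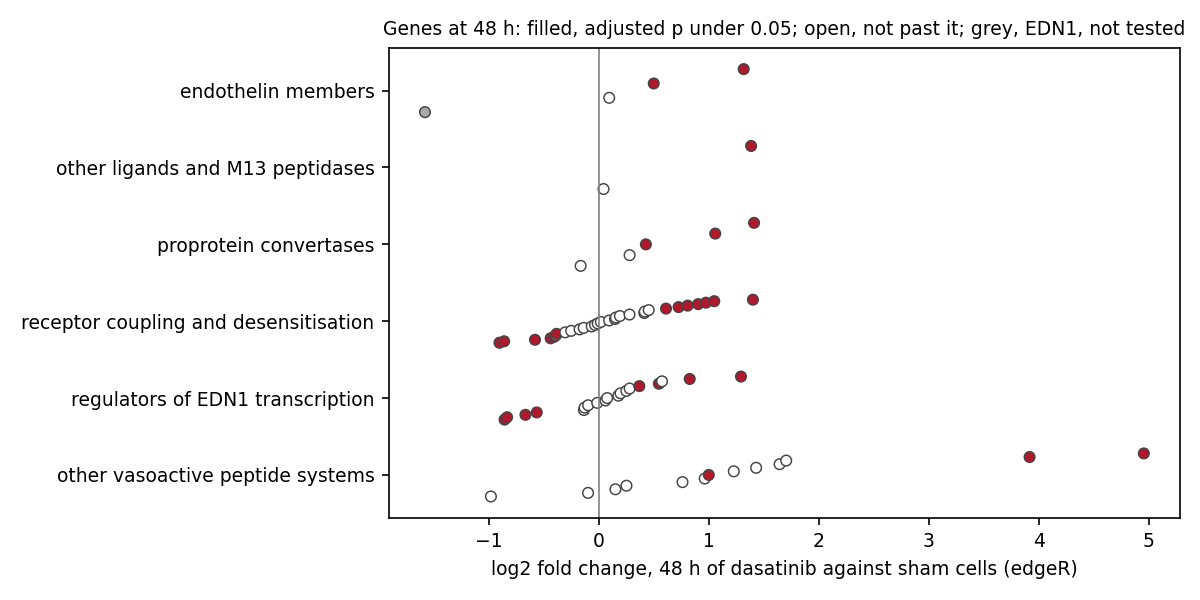
Log2 fold change at 48 h of dasatinib against sham cells for each tested gene of the members and of 5 lists, 1 point per gene. Filled points passed an adjusted p of 0.05 in edgeR and open points did not, and *EDN1*, drawn in grey at −1.58, was not tested. In the vasoactive list *BDKRB2* is at 3.92. *BDKRB1*, at the far right, had 0 and 2 counts at 0 h. Its point is filled, but its value is a description and no test.

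The cells matched their label in part. All 5 basal B markers were at 1 TPM or more in every library, *PGR* had 0 counts and *ESR1* at most 0.144 TPM. However, 5 of the 7 luminal markers were at 1 TPM or more, among them *FOXA1* at 8.63 to 14.1 TPM and *SPDEF* at 14.5 to 95.3 TPM. Of 6 luminal markers tested, 2 were called higher at 48 h and 0 lower, where 16.0% of all genes were higher. These were *SPDEF* (log2FC 2.46, edgeR adjusted p = 6.69e-06) and *FOXA1* (log2FC 0.57, edgeR adjusted p = 0.0177). The summed basal B markers were lower in treated cells, 2256 to 2258 TPM at 48 h against 3237 to 3299 TPM at 0 h. Of these 5 markers 4 were called lower at 48 h, where 16.3% of all genes were lower. Lists of this size are too small to read against such shares. The luminal sum was 672 to 684 TPM at 48 h against 558 to 615 TPM at 0 h, most of it from the keratin genes *KRT8* and *KRT18*. Mean TPM at 0 and 48 h was 231 and 268 for *KRT8*, 318 and 293 for *KRT18*, and 16.1 and 93.2 for *SPDEF*. It was 9.01 and 14.0 for *FOXA1* and 11.7 and 9.68 for *GATA3*, so the markers did not move as one. Because endothelial cells make endothelin-1, 8 of their markers were read: 6 were under 1 TPM in all libraries, with *ERG* at 0 to 2 counts, *TEK* at 2 to 8 and *VWF* at 0 to 27. Their summed level was 9.75 to 10.3 TPM at 0 h, 8.27 to 9.20 TPM after 6 h, 9.19 to 10.3 TPM after 12 h, 11.0 to 12.2 TPM after 24 h and 7.99 to 8.99 TPM after 48 h, most of it from *ROBO4* at 4.07 to 8.82 TPM. At 48 h *ROBO4* had a log2FC of −1.17 (adjusted p = 0.00131) and *PECAM1* of 2.36 (edgeR adjusted p = 0.000783). Haematopoietic markers summed to 3.28 to 4.63 TPM at 48 h, against 0.418 to 1.04 TPM at 0 h, with *CD3E* at 0 and *CD14* called higher at 48 h (log2FC 2.48, edgeR adjusted p = 0.0212). The part of these markers in the members' values was not tested.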

How the data were processed

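RNA-seq was measured in 10 MDA-MB-231 libraries. Per the paper and the processing notes, the authors ran FastQC and MultiQC, removed adapters with Trim Galore, mapped reads to hg38 (STAR 2.5.2b) and used featureCounts for gene counts. The annotation and strand setting are not given in the sources used here. The authors deposited raw counts per gene and TPM per gene, and how TPM was derived is likewise not given.

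The counts were fitted by edgeR 4.0.16 under R 4.3.3 (filter on low counts by group, 15727 genes; TMM; 1 fit with a mean per time; robust quasi-likelihood test; Benjamini-Hochberg adjustment over all genes tested; threshold 0.05). The study used DESeq2, run here as an alternative. A count of 3 was the floor for a count of 0, which covers counting error only. Intervals are 95% and unadjusted. The code was tested on simulated counts.

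The members, lists, motifs and tests were chosen with earlier results of these data known. Named were all members, EDN2 and EDN3, for each list up to 3 genes either way, by adjusted p at 48 h, and the 5 (EDN1) or 3 (other members) genes of highest Pearson correlation among those whose log2 CPM averaged 2 or more. *JUN*, *GATA2*, *HIF1A* and *FURIN*, the genes near the members and the undetected peptidases fall outside this rule. The results of some genes are left out here. Marker genes were read from lists of endothelial, haematopoietic, luminal and basal B genes. Promoters came from RefSeq on GRCh38.p14 (4 of 5 members matched) and loci from GENCODE, which may differ from the authors' annotation.

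The alternatives were no filter, DESeq2 1.42.0, its size factors within edgeR, 2-group fits, a replicate block, limma 3.58.1 on log2(TPM + 1) and log2(TPM + 0.1), no 12 h libraries, and each library left out.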

Additional observations from a re-analysis of the deposited data

Results flagged for a closer look

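Changes between treated times passed the edgeR test of the difference itself for 2 members. Of all genes, 7.58% were called at 24 against 12 h, 22.7% at 48 against 12 h and 3.18% at 48 against 24 h. *EDN1* was higher at 24 than at 12 h by a log2 fold change of 1.20 (adjusted p = 0.0279) and at 48 than at 12 h by 1.47 (adjusted p = 0.00401). *ECE1* was higher at 48 than at 12 h by 0.43 (adjusted p = 0.0158) and at 48 than at 24 h by 0.49 (adjusted p = 0.0351). Among alternatives with no single library left out, the *EDN1* calls were lost in 3 of 9 and 1 of 9, in the order given. Those of *ECE1* were lost in 2 of 9 and 4 of 10. The drug and the time in culture cannot be told apart in these differences. Both *EDN1* differences share the 12 h libraries, whose replicates had 193 and 453 counts of this gene.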

How the results depend on the processing

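The rise of *EDNRA* at 48 h stayed past the threshold under all 20 alternatives. The rise of *EDNRA* at 12 h missed it in 2-group fits by edgeR (0.91, adjusted p = 0.380) and DESeq2 (0.91), and in limma on log2(TPM + 1) with a filter (0.84) or without (0.84) and on log2(TPM + 0.1) (0.99), and with single libraries left out it was 0.71 to 1.10. *EDN1* at 24 against 12 h missed it in 2-group fits by edgeR (1.20) and DESeq2 (1.20) and in limma without a filter (1.22), with 0.74 to 1.87 when a library was left out, and at 48 against 12 h in the 2-group edgeR fit (1.47, adjusted p = 0.0857). *ECE1* at 48 against 12 h missed it in 2-group fits by edgeR (0.42) and DESeq2 (0.43), with 0.40 to 0.48 when a library was left out. *ECE1* at 48 against 24 h missed it in limma on log2(TPM + 1) (0.47), without a filter (0.47) and on log2(TPM + 0.1) (0.47), with 0.44 to 0.54 when a library was left out, and *ECE1* at 48 against 0 h was 0.46 to 0.54. Uncalled differences that changed sign with a library left out were *EDNRB* at 12 h (−0.56 to 1.11) and 48 h against 0 h (−0.49 to 1.09) and at 48 against 12 h (−0.48 to 0.65), and *ECE1* at 24 h (−0.0368 to 0.0555). The cause of these changes was not tested.

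Replicate numbers share only a number: the correlation of replicate differences was −0.04 to 0.10 over 10 pairs of times, and 1 was over 0.1. With a replicate block, *ECE1* at 48 against 24 h was 0.49 and missed the threshold (adjusted p = 0.0530), *EDNRB* at 48 against 12 h was 0.0508, and no other member's call changed. Over the whole table, 59 to 3210 genes were called at 6 h (430 as reported), 0 to 7559 genes at 12 h (1124), 1216 to 6692 genes at 24 h (3143) and 2913 to 8395 genes at 48 h (5077) against 0 h. They ranged from 0 to 7494 at 24 against 12 h (1192), 784 to 7855 at 48 against 12 h (3575) and 17 to 3805 at 48 against 24 h (500). The count of 0 came from edgeR on 2 groups alone, where DESeq2 called 289 at 12 h and 335 at 24 against 12 h. Without 12 h replicate 1, 3205, 2793, 6665 and 8364 genes were called at 6, 12, 24 and 48 h against 0 h. With 1 library left out its group holds 1 sample, assumed to vary like the others. Depth limits *EDNRB*, at 16 to 66 counts.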
